A study of Danio rerio with 18 samples.

Results

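The genes described here are 5 genes of myeloid blood cells, spi1b, cebpa, lcp1, mmp13a and coro1a. They were chosen by name, and every probe set that the array annotation gives to 1 of these symbols alone was taken. This gave 7 probe sets of 15502 that are not controls, and 5 genes of 8793 with a symbol. The genes spi1b and coro1a have 2 probe sets each, called brighter and dimmer here by their mean over all 18 arrays, and the other genes have 1 each.

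Myeloid cells are the macrophages, granulocytes and mast cells of the blood. In the zebrafish embryo, primitive myeloid cells arise from anterior lateral plate mesoderm and spread over the yolk and into the head, while red blood cells form further back from posterior mesoderm. The transcription factor Pu.1, encoded by spi1b, directs early blood progenitors to the myeloid fate. Cebpa, a leucine zipper factor, acts with it in granulocyte and macrophage formation. The products of lcp1 (L-plastin, which bundles actin) and coro1a (coronin 1A, which binds actin and the Arp2/3 complex) belong to the motile cytoskeleton of white blood cells. Mmp13a is a secreted collagenase.

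Cells were sorted by green fluorescent protein (GFP) from embryos at 14 to 16 somites raised at 28 °C, and each group below holds 3 arrays that the labels call biological replicates. A wild-type miR-206 reporter line was sorted into muscle (GFP-positive) and all other cells (GFP-negative). A Dicer-mutant line with a miR-124 reporter, labelled MZ, was sorted into GFP-positive cells of the central nervous system (CNS) and GFP-negative cells. A wild-type line with the miR-124 reporter was sorted in the same way. Dicer cuts microRNA precursors to their mature form. The labels used here give neither the reporter constructs nor whether embryos were pooled. No group was sorted for blood, so the GFP-negative fractions hold any myeloid cells together with skin, red blood cells, vessels and all other cells without GFP.

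Values are MAS5 intensities on a linear scale, and the number of arrays limits their precision. Array medians lay between 30.9 and 44.7, and correlations between replicates between 0.959 and 0.989. No detection calls were used here, so the 40th percentile of each array, which lay between 18.5 and 26.6, serves below as the limit under which a probe set is called dim. The sorts went with their labels: 10 of 10 sarcomere and myogenic markers were higher in muscle cells than in their rest. Neural markers were higher in 10 of 10 cases in wild-type CNS cells, and in 9 of 10 in mutant CNS cells. Of all probe sets that differed by limma (adjusted p under 0.05), 36.5%, 45.1% and 42.4% were higher in the same order. These lists were chosen with earlier results of these data known, so the counts describe the sorts and do not test them. The gene mutated in the Dicer line, dicer1, had intensities of 140 ± 60.2 in mutant CNS cells against 245 ± 18.3 in wild-type ones, and of 93.5 ± 22.8 in mutant GFP-negative cells against 198 ± 87.9 in wild-type ones (SD, n = 3).

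The myeloid regulator spi1b was dim in every sorted muscle and CNS array by its brighter probe set. Intensities were 6.0, 13 and 16.6 in muscle cells, against 28.9, 98.4 and 116.8 in the GFP-negative cells of the miR-206 line. Mutant CNS cells gave 11.3, 17.1 and 13.5, against 33.5, 31.9 and 22.6 in mutant GFP-negative cells. Wild-type CNS cells gave 1.9, 15.3 and 7.4, against 142, 133 and 269 in the GFP-negative cells of that line. In each line the GFP-negative arrays all lay above the GFP-positive ones, but the mutant GFP-negative arrays stayed close to the limit, with 2 of 3 above it. The dimmer probe set ordered the 3 GFP-negative groups in the same way. It read 13.7, 12.5 and 22.5 in muscle cells, against 36.8, 63.2 and 64 in their GFP-negative cells, and 11.6, 9.7 and 14.7 in mutant CNS cells, against 27.9, 15 and 17.9 in mutant GFP-negative cells. Wild-type CNS cells read 20.5, 15.2 and 18.3, against 66.6, 57.8 and 131 in their GFP-negative cells. By this probe set the mutant GFP-negative cells overlapped in range with wild-type CNS cells. Over the 18 arrays the pair of spi1b probe sets correlated at r = 0.928 on the log2 scale.

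The second factor gene, cebpa, was high in all GFP-negative cells. It measured 12.6, 17.8 and 28.9 in muscle cells, against 515, 427 and 623 in the GFP-negative cells beside them. In the mutant line it measured 6.8, 8.5 and 9.1 in CNS cells, against 276, 269 and 211 in GFP-negative cells. Wild-type CNS cells held 8.6, 12.8 and 10.8, against 890, 626 and 1005 in their GFP-negative cells. The 3 GFP-negative groups did not overlap with each other, highest in the wild-type miR-124 line and lowest in the mutant, and all 9 of their arrays were far above the limit. Below them, muscle, wild-type CNS and mutant CNS cells followed with overlapping ranges between muscle and wild-type CNS cells and between the CNS groups.

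The actin bundler gene lcp1 was dim on nearly all arrays. Its intensities were 1.8, 2.4 and 1.8 in muscle cells, against 10.3, 13.5 and 45.3 in GFP-negative cells of the miR-206 line. In mutants it lay at 0.6, 1.3 and 1.2 in CNS cells and at 1.1, 0.5 and 1.9 in GFP-negative cells. Wild-type CNS cells had 1.3, 0.8 and 1.3, against 19.6, 54.2 and 81.4 in GFP-negative cells. Only 3 of the 18 arrays exceeded the limit, 1 in the GFP-negative cells of the miR-206 line and 2 in those of the wild-type miR-124 line, and all 6 mutant arrays were far under it. A gene that passes the filter on low values through 1 or 2 groups in this way had to differ between groups, which holds for the dimmer coro1a probe set as well. The changes of both are therefore given below without a p. Where a comparison includes a wild-type GFP-negative group, further counts are given. They cover the 5 probe sets that pass without the compared group where they are highest. Both spi1b probe sets are among these 5. They pass without either wild-type GFP-negative group alone, but not without both.

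The collagenase gene mmp13a was high in both wild-type GFP-negative groups and near the limit in the mutant one. Muscle cells gave 6.3, 28.9 and 14.4, against 408, 679 and 628 in the GFP-negative cells of that line. Mutant CNS cells gave 11.0, 7.3 and 1.9, and mutant GFP-negative cells 24.6, 23.4 and 15.2. Wild-type CNS cells gave 10.2, 17.6 and 24.7, against 431, 771 and 1119 in GFP-negative cells. The mutant GFP-negative cells thus overlapped in range with wild-type CNS cells and did not overlap with the GFP-negative cells of either wild-type line, whose own ranges overlapped.

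**Figure D1:**
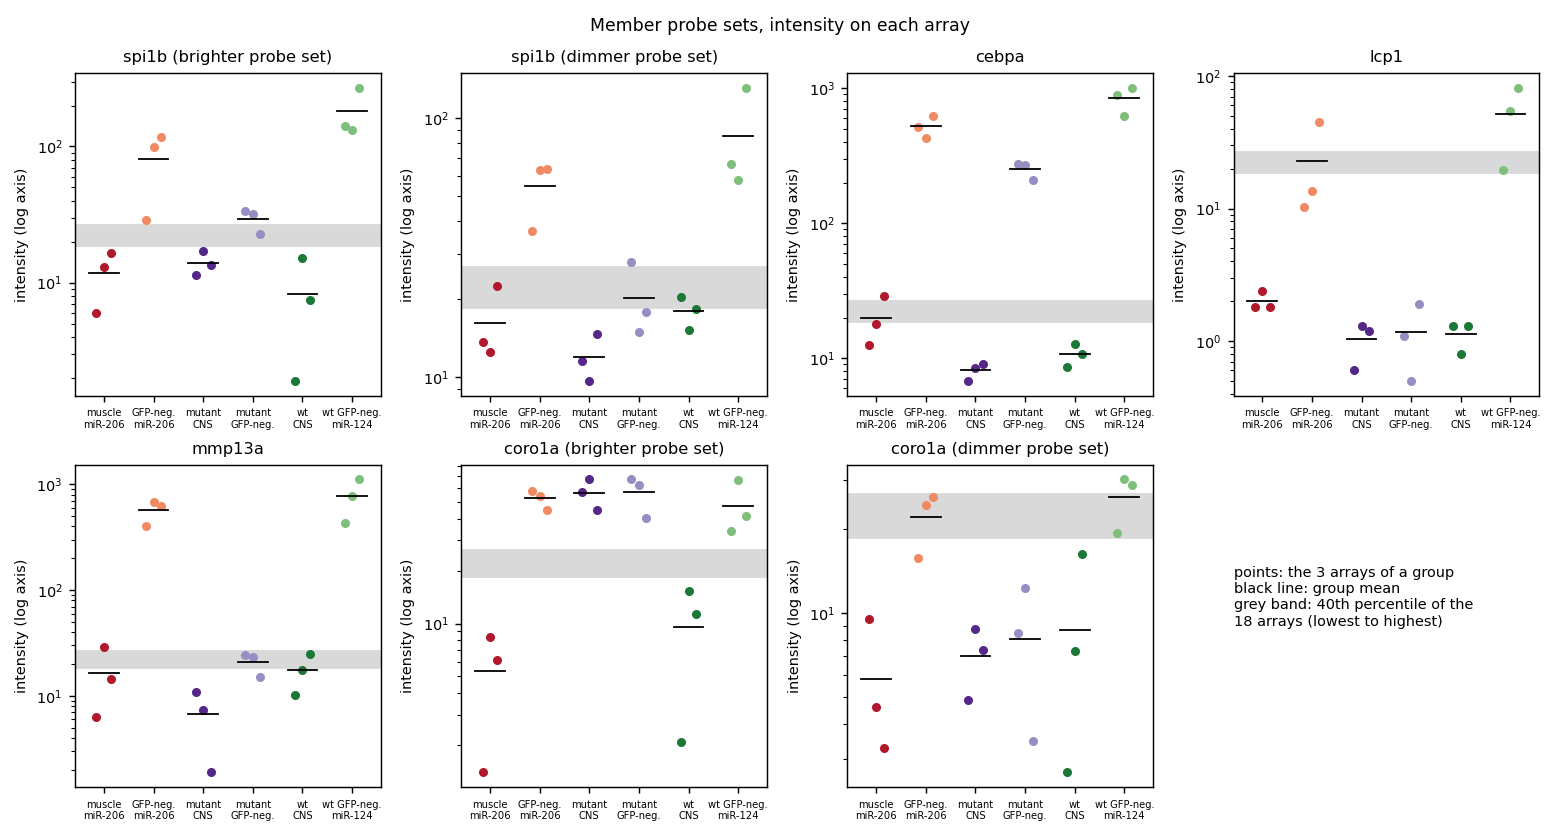
Intensity (log axis) of the 7 member probe sets on each array for the 6 sorted groups, with points for the 3 arrays, a black line for the group mean and a grey band for the range of the arrays' 40th percentiles. The mutant GFP-negative arrays lie within or below the band for mmp13a and below it for lcp1, and for cebpa they lie at 211 to 276, well above it. The brighter coro1a probe set is high in both mutant groups.

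The 2 probe sets of coro1a did not have the same pattern. By the brighter one, intensities were 1.4, 8.4 and 6.2 in muscle cells, against 57.6, 54.1 and 45.1 in the GFP-negative cells. Mutant CNS cells had 56.9, 67.4 and 45.1, against 67.4, 62.1 and 40.1 in mutant GFP-negative cells, and wild-type CNS cells had 2.1, 15.3 and 11.3, against 33.9, 66.8 and 41.6. By this probe set, mutant CNS cells overlapped in range with all 3 GFP-negative groups, and muscle and wild-type CNS cells lay below them. The dimmer probe set read 9.5, 4.6 and 3.3 in muscle cells, against 15.8, 24.3 and 26.0 in their GFP-negative cells. It read 4.9, 8.8 and 7.4 in mutant CNS cells, against 8.5, 12.3 and 3.5 in mutant GFP-negative cells. Wild-type CNS cells had 2.7, 7.3 and 16.2, against 19.3, 30.1 and 28.6 in GFP-negative cells. By this one the mutant fractions overlapped, and both lay below all wild-type GFP-negative arrays. Across the 18 arrays the 2 probe sets correlated at r = 0.441, whereas the dimmer one correlated at 0.889 with mmp13a and 0.844 with lcp1.

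The ID of the brighter coro1a probe set shares its number, 3499, with the probe set that the annotation gives to the epidermal claudin gene cldni. This was looked for after its values had been seen. The claudin gene averaged 1284 ± 344 in mutant CNS cells and 1447 ± 319 in mutant GFP-negative cells, and 211 ± 119 in wild-type CNS cells against 1554 ± 149 in their GFP-negative cells. Muscle cells had 26.4 ± 30.7, against 1806 ± 245 in the rest of that line (SD, n = 3). The correlation of cldni with the brighter coro1a probe set was r = 0.917 over the 18 arrays, and with the dimmer one 0.497. Which transcript the brighter probe set detects was not tested. Counts and medians below include it unless they are said to be without it.

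**Figure D2:**
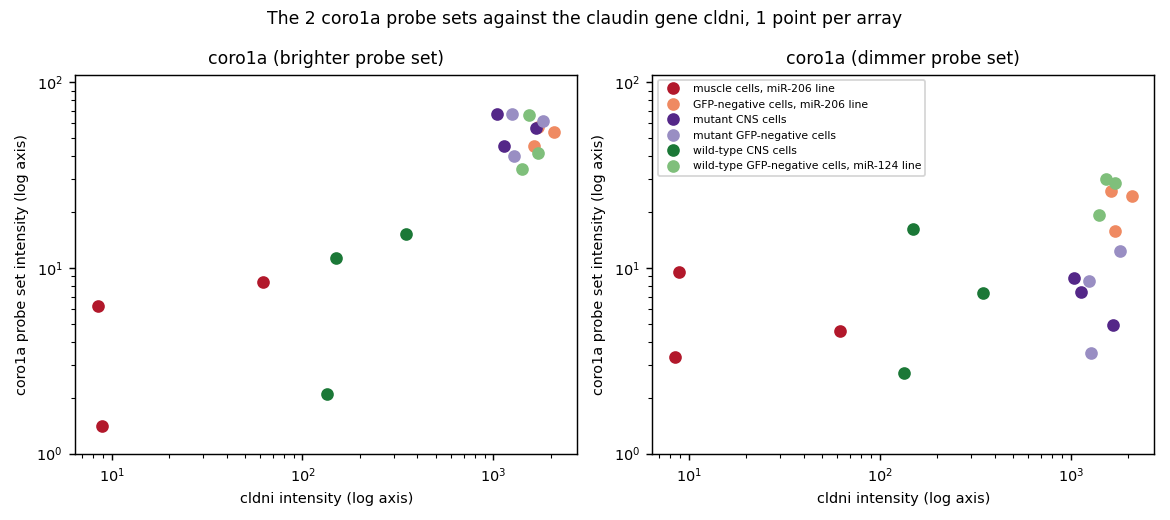
Intensity of the brighter and the dimmer coro1a probe set (vertical, log axis) against that of the claudin gene cldni (horizontal, log axis), with 1 point per array coloured by group. The mutant CNS arrays lie with the GFP-negative arrays in the first panel, where r = 0.917 on the log2 scale, and below the wild-type GFP-negative arrays in the second, where r = 0.497.

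The first question was how far these genes were lower in the sorted muscle and CNS cells of wild-type embryos. Changes are log2 fold changes of intensity + 16 from limma across all 10704 probe sets that passed the filter, with standard error (SE) and Benjamini-Hochberg adjusted p, and a probe set is said to rise or fall where that p is under 0.05. All 7 probe sets passed the filter. In muscle cells 5 of the 5 that pass without their highest group fell, beside 21.8% of all probe sets that fell, and 4 of 4 without the brighter coro1a probe set. With lcp1 and the dimmer coro1a probe set, whose differences the filter favoured, it was 7 of 7. The collagenase gene mmp13a fell by 4.20 (SE 0.29, adjusted p = 5.45e-10), cebpa by 3.92 (SE 0.19, adjusted p = 4.44e-12) and spi1b by 1.68 by its brighter probe set (SE 0.32, adjusted p = 0.000265) and by 1.12 by the dimmer. The fall of coro1a was 1.69 by its brighter and 0.80 by its dimmer probe set. That of lcp1 was 1.01 and rested on few arrays: without GFP-negative replicate 3 of the miR-206 line it was -0.63 and no longer passed. The median change was -1.69 over the 5 probe sets, -2.80 over the 4 without the brighter coro1a probe set and -0.05 over all probe sets. In bulk samples, fewer cells of a type and less RNA per cell cannot be told apart.

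In wild-type CNS cells 5 of the same 5 also fell, beside 17.4% of all probe sets, and 4 of 4 without the brighter coro1a probe set. The other 2, whose differences the filter favoured, fell as well. The largest fall was that of cebpa, 4.98 on the log2 scale (SE 0.19, adjusted p = 8.17e-13), followed by mmp13a with 4.48 (SE 0.29, adjusted p = 5.65e-10) and spi1b with 3.00 by its brighter probe set (SE 0.32, adjusted p = 3.12e-07). The other falls were 1.87 for lcp1, 1.51 for the dimmer spi1b probe set, and 1.31 and 0.79 for the brighter and dimmer coro1a probe sets. The median was -3.00 over the 5 and -3.74 over the 4 without the brighter coro1a probe set, against 0.03 over all probe sets. As the added 16 shrinks the change of dim genes, a bound was also computed where the lower group was dim on every array. Each array of that group was set to its own 40th percentile, and the arrays of the higher group were left at their measured values. On that basis wild-type CNS cells were at least 37.8-fold lower in cebpa, 7.89-fold in spi1b by its brighter probe set and 2.03-fold in lcp1, where 1 array of the GFP-negative group was dim itself. For mmp13a no such bound applies, since 1 of the 3 CNS arrays was above the limit.

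Muscle and CNS cells of the wild-type lines were then set against each other. None of the 7 probe sets rose or fell by limma (0 of 7 at an adjusted p under 0.05, beside 43.2% of all probe sets), and all had means at or below 19.8 in both groups. The nearest to a difference was cebpa, 0.40 higher in muscle cells (SE 0.19, adjusted p = 0.0982), which passed with median centring (adjusted p = 0.0294). The difference of the sort effects, muscle against CNS, was called for cebpa (1.06, SE 0.27, adjusted p = 0.00411) and for the brighter spi1b probe set (1.32, SE 0.45, adjusted p = 0.0272), where the positive sign means the smaller fall in muscle cells. That made 2 of 7 higher, and 2 of the 5 that pass without their highest group, beside 13.6% of all probe sets. Each of these values includes the difference between the GFP-negative groups of the lines, given below. Neither probe set was called between muscle and CNS cells themselves. The spi1b probe set among them does not pass without both wild-type GFP-negative groups, which this difference compares. The spi1b call was lost without GFP-negative replicate 1 of the miR-206 line (0.84). It was also lost without muscle replicate 2 (1.28) or 3, wild-type CNS replicate 1 (1.12) or wild-type GFP-negative replicate 3 of the miR-124 line (1.02). With dim values set to the limit, neither passed (adjusted p = 0.0834 for spi1b and 0.0713 for cebpa).

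Between the wild-type lines, GFP-negative cells had cebpa at 521 ± 97.9 in the miR-206 line and 840 ± 194 in the miR-124 line (SD, n = 3), a change of -0.66 (SE 0.19, adjusted p = 0.0439). For the brighter spi1b probe set the change was -1.10 (adjusted p = 0.0441). With 2 of 7 lower, and 2 of the same 5, beside 3.64% of all probe sets, both calls lay just under the threshold. They were lost in the fit to these groups alone (adjusted p = 0.257 for cebpa and 0.273 for spi1b) and without most single arrays. The spi1b change was -0.61 (adjusted p = 0.236) without GFP-negative replicate 1 of the miR-206 line, and that of cebpa was -0.52 (adjusted p = 0.153) without GFP-negative replicate 3 of the miR-124 line. Without replicate 3 of the miR-206 line or replicate 1 of the miR-124 line in these cells, lcp1 gained a call (-1.16 and -1.19), against -0.79 and no call with all arrays. As lcp1 passed the filter only through these groups, no conclusion is drawn from that call. The spi1b probe sets pass without either of these groups alone but not without both. No conclusion is therefore drawn from the spi1b call here either. The change of mmp13a was -0.36 (adjusted p = 0.537).

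**Figure D3:**
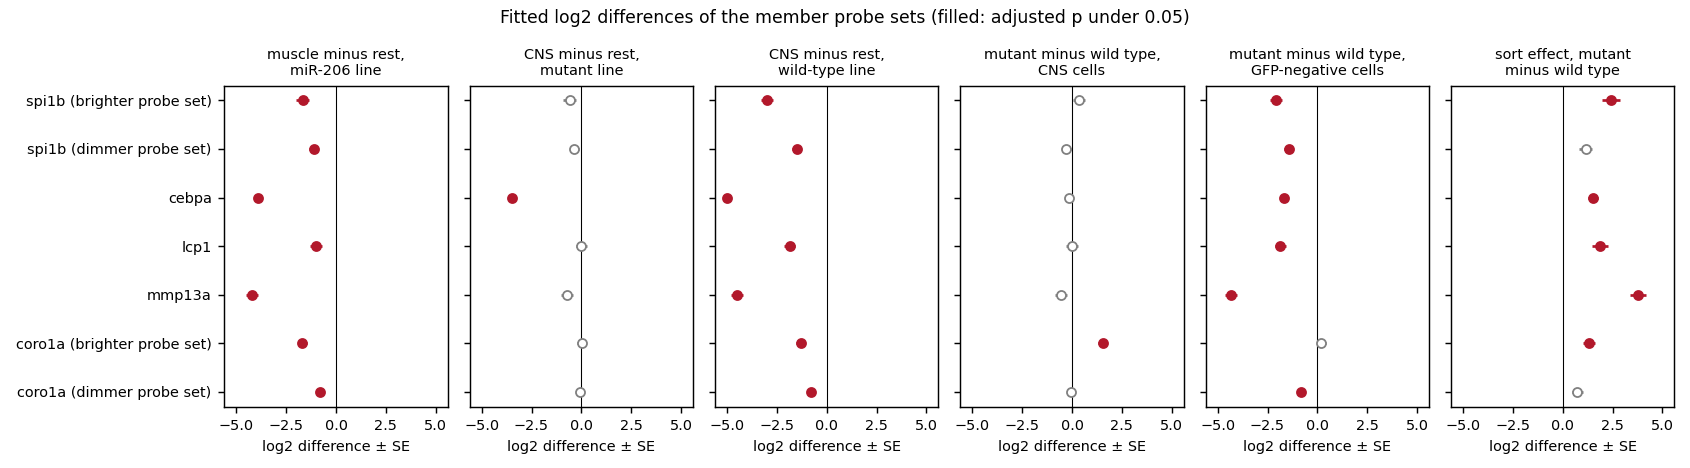
Fitted log2 differences with their standard errors (horizontal axis) of the 7 member probe sets (rows) in 6 comparisons, filled where the adjusted p was under 0.05. All 7 are filled and negative in muscle cells, 1 of 7 in mutant CNS cells, 7 of 7 in wild-type CNS cells and 6 of 7 in mutant against wild-type GFP-negative cells. Of all probe sets, 21.8%, 8.57%, 17.4% and 16.8% fell in the same order. Among the 7, lcp1 and the dimmer coro1a probe set pass the filter only with both wild-type GFP-negative groups. The spi1b probe sets pass only with at least 1 of these groups.

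The next comparison asked how the same genes behaved when CNS cells were sorted from Dicer mutants. Here 1 of 7 fell, beside 8.57% of all probe sets. It was cebpa, by 3.46 (SE 0.19, adjusted p = 8e-11), with mutant CNS cells at least 11.8-fold lower than mutant GFP-negative cells by the bound. The change of mmp13a was -0.72 (SE 0.29, adjusted p = 0.122). Whether the replicate numbers pair the fractions of this line was not settled. In the limma fit that takes them as pairs, the replicate block, mmp13a passed (-0.72, adjusted p = 0.00397). The brighter spi1b probe set had -0.59 (adjusted p = 0.264), with groups that did not overlap, and lcp1 and the 2 coro1a probe sets lay between -0.05 and 0.01. Nearly all these values were near or under the limit in both fractions, apart from those of cebpa and of the brighter coro1a probe set.

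Mutant and wild-type miR-124 embryos were compared within each fraction, to ask what differed between them. In the GFP-negative cells 4 of the 5 probe sets that pass without their highest group fell in mutants and 0 rose, beside 16.8% of all probe sets that fell and 17.0% that rose. With lcp1 and the dimmer coro1a probe set, whose differences the filter favoured, it was 6 of 7. The fall was largest for mmp13a, from limma 4.32 on the log2 scale (SE 0.29, adjusted p = 6.79e-09), a mean of 21.1 ± 5.12 in mutants and 774 ± 344 in wild type (SD, n = 3). It was 2.07 for spi1b by the brighter probe set (SE 0.32, adjusted p = 8.9e-05) and 1.43 by the dimmer one. For lcp1, whose difference the filter favoured, it was 1.86. By the bound mutants were 1.87-fold lower, but 1 wild-type array was dim itself, so no conclusion is drawn from that fold. The gene cebpa fell by 1.66 (SE 0.19, adjusted p = 4.04e-06), to 252 ± 35.9 in mutants, against 840 ± 194 in wild type, so it stayed well above the limit. By the dimmer coro1a probe set the fall was 0.81, and with dim values set to the limit it was -0.25 and did not pass. The exception was the brighter coro1a probe set, at 0.21 (SE 0.22, adjusted p = 0.493).

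In the CNS cells, 1 of 7 probe sets rose in mutants and 0 fell, beside 18.1% and 15.2% of all probe sets. The riser was the brighter coro1a probe set, by 1.53 (SE 0.22, adjusted p = 3.75e-05), at least 2.56-fold by the bound, while the dimmer one had -0.07. Epidermal and periderm markers moved with it. Of 19 measured, cldni among them, 11 rose and 0 fell in mutant against wild-type CNS cells, and their summed intensity was 5383 to 8064 in mutant CNS cells, against 1883 to 2854 in wild-type CNS cells. In the mutants 4 of these 19 were at or below the limit on all CNS arrays, and 4 in wild type. Their part in the coro1a result was not tested.

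The change of the sort effect with genotype was tested directly. It was called for 4 of the 5 probe sets that pass without their highest group, all positive, beside 2.01% of all probe sets, and for 3 of 4 without the brighter coro1a probe set. With lcp1 and the dimmer coro1a probe set, whose differences the filter favoured, it was 5 of 7. A positive value means that the fall in CNS cells was smaller in the mutant line. It was 3.77 for mmp13a (SE 0.42, adjusted p = 9.9e-05), 2.41 for the brighter spi1b probe set (SE 0.45, adjusted p = 0.00482), 1.86 for lcp1, 1.51 for cebpa (adjusted p = 0.00357) and 1.32 for the brighter coro1a probe set (adjusted p = 0.0247). The dimmer spi1b probe set had 1.15 (adjusted p = 0.0649, and 0.0341 with the replicate block). For spi1b, cebpa and lcp1 all 6 CNS arrays of the miR-124 lines were dim, so that for these genes the values turn on the GFP-negative cells described above. The lcp1 and brighter coro1a calls were lost with dim values set to the limit (adjusted p = 0.0805 for coro1a). That of coro1a was also lost without mutant CNS replicate 1 (1.31) or 2 (1.22), mutant GFP-negative replicate 3 (1.15), wild-type CNS replicate 1 (1.09) or wild-type GFP-negative replicate 2 (1.11). With 1 added in place of 16, cebpa did not pass (1.36, adjusted p = 0.0663).

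Other genes of myeloid cells were taken from 4 lists, 55 genes in all, of which 30 had a probe set with that symbol and 15 passed the filter. Those that did not pass include the granule genes mpx (myeloperoxidase, at most 9.6 on any array) and lyz (lysozyme, at most 23.0), the macrophage receptor gene csf1ra (at most 8.5) and the leukocyte phosphatase gene ptprc (at most 9.1). None of these 4 was above the limit on any array. Of these 15, ctss2.2 (in muscle cells) and both ctss2.2 and ncf4 (in comparisons with the wild-type GFP-negative cells of the miR-124 line) passed only through the compared group where they are highest, and counts without them stand in parentheses. In muscle cells 10 fell (9 of 14 without ctss2.2), beside 21.8% of all probe sets. In mutant CNS cells 4 fell, beside 8.57%, and in wild-type CNS cells 12 (11 of 13), beside 17.4%. Each count is against the line's own GFP-negative cells, and 0 rose. In mutant against wild-type GFP-negative cells 8 fell (6 of 13), beside 16.8%, and 0 rose, and 5 were called without mutant GFP-negative replicate 2 or 3. The genotype difference of the sort effect was called and positive for 3 of the 15, among them cyba and ncf1, beside 2.01% of all probe sets.

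Among the transcription factors, 5 of 6 fell in muscle cells, 1 of 6 in mutant CNS cells and 5 of 6 in wild-type CNS cells. The shares of all probe sets that fell were 21.8%, 8.57% and 17.4%. The lymphoid and myeloid zinc finger gene ikzf1 fell in all 3 sorts, by 1.71 in muscle cells, 1.74 in mutant CNS cells and 2.02 in wild-type CNS cells. The leucine zipper gene cebpb fell by 2.02 in muscle cells and 1.55 in wild-type CNS cells, and cebpd by 1.85 and 1.95. The progenitor factor gene myb fell by 0.83 and 0.74. In mutant GFP-negative cells 2 of the 6 were lower than in wild type, beside 16.8% of all probe sets. They were cebpb, by 1.17, and cebp1, a C/EBP gene of zebrafish granulocytes, by 0.68. In the sorts cebp1 was not called, with 0.10 in muscle cells, 0.22 in mutant CNS cells and -0.35 in wild-type CNS cells.

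Of 6 granule, protease and oxidase genes, 4 fell in muscle cells, 2 in mutant CNS cells, 5 in wild-type CNS cells, and 5 in mutant against wild-type GFP-negative cells. The shares of all probe sets were 21.8%, 8.57%, 17.4% and 16.8% in the same order. All but the mutant CNS count include ctss2.2, and the last also ncf4. Both passed the filter there only through the compared group where they are highest. The gene ncf1, a cytosolic subunit of the phagocyte NADPH oxidase, averaged 14.2 ± 3.66 in mutant and 69.7 ± 36.5 in wild-type GFP-negative cells (SD, n = 3), a fall of 1.41 by limma (adjusted p = 0.000268). It fell by 1.13 in muscle cells and by 1.57 in wild-type CNS cells, and had 0.09 in mutant CNS cells. The gelatinase gene mmp9 fell by 1.15 in muscle cells, 0.75 in mutant CNS cells and 1.24 in wild-type CNS cells, and by 0.58 in mutant against wild-type GFP-negative cells. The gene nccrp1, known in fish as a receptor gene of nonspecific cytotoxic cells, fell by 0.78 in mutant CNS cells and 0.84 in wild-type CNS cells and did not pass in muscle cells (0.27), at 75.7 ± 8.11 in muscle cells and 60.8 ± 14.9 in their GFP-negative cells (SD, n = 3). Between the sorted wild-type cells it was 0.89 higher in muscle than in CNS cells by limma (adjusted p = 0.000174). The change of the cathepsin gene ctss2.2, which the filter favoured, was -0.80 in muscle cells, -0.97 in wild-type CNS cells and -0.93 in mutant GFP-negative cells. The oxidase membrane subunit gene cyba fell by 0.51, 0.84 and 0.39 in the same order.

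Only 1 receptor gene and 2 cytoskeleton or signalling genes of the lists passed the filter. The mannose receptor gene mrc1a, which in zebrafish is also known from veins and lymphatic vessels, had 0.12 in muscle cells and fell by 1.01 in mutant CNS cells and 1.56 in wild-type CNS cells. In mutant against wild-type CNS cells 3 of the 15 genes rose, a share near the 18.1% of all probe sets that rose there. Among them were cebpd with 1.07 and cyba with 0.56, in the fraction in which 11 of 19 epidermal markers rose. The part of epidermal cells in these rises was not tested.

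**Figure D4:**
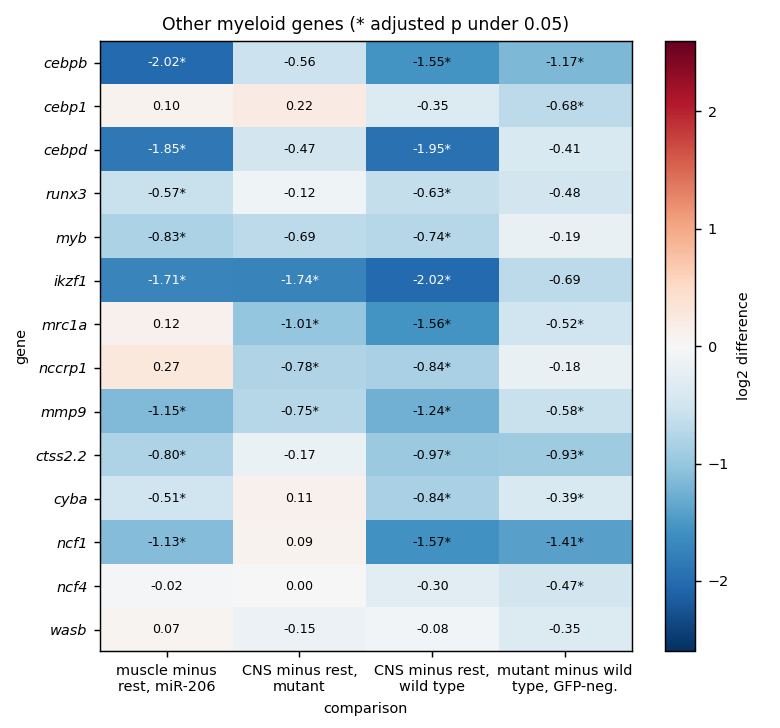
Fitted log2 differences of 14 of the 15 other myeloid genes that passed the filter (rows) in 4 comparisons (columns), in blue where lower and red where higher, with a star for an adjusted p under 0.05. Starred falls fill 9 of 14 rows for muscle, 4 of 14 for mutant CNS and 11 of 14 for wild-type CNS cells, and 8 of 14 for mutant against wild-type GFP-negative cells, where ncf1 (-1.41) and cebpb (-1.17) are lowest among these 14. In that last column ctss2.2 and ncf4 pass the filter only through the wild-type group. Without them 6 of 13 of the 15 genes fell, beside 16.8% of all probe sets. The same limit holds for ctss2.2 in the muscle and wild-type CNS columns.

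Paralogues of the members were less uniform. Of 3 coronin genes measured besides coro1a, 3 fell in muscle cells, beside 21.8% of all probe sets. The gene coro1b rose by 1.71 in mutant CNS cells and 2.11 in wild-type CNS cells and fell by 2.19 in muscle cells. The coronin gene coro2aa fell by 2.54 in muscle cells, 0.61 in mutant CNS cells and 1.68 in wild-type CNS cells, and in CNS cells it was 1.54 higher in mutants than in wild type. The gene coro1ca fell by 0.77 in muscle cells and 0.56 in wild-type CNS cells, and by 0.71 in mutant against wild-type GFP-negative cells, where coro1b rose by 0.85 and coro2aa by 0.47. Among 5 C/EBP genes besides cebpa, 3 fell in muscle cells and 2 in wild-type CNS cells, beside 21.8% and 17.4% of all probe sets. The gene cebpz rose by 0.80 in muscle cells and cebpg by 0.66 in wild-type CNS cells. In mutant CNS cells 0 rose or fell, where 8.57% of all probe sets fell. In mutant against wild-type GFP-negative cells cebpb (1.17), cebp1 (0.68) and cebpz (0.46) fell and cebpg rose by 0.58, where cebpa fell by 1.66. Of 7 genes for other matrix metalloproteases and their inhibitors, 3 rose and 1 fell in mutant against wild-type GFP-negative cells, beside 17.0% and 16.8% of all probe sets, where mmp13a fell by 4.32. The riser timp2a, an inhibitor of these enzymes, averaged 235 ± 22.5 in mutant and 50.9 ± 4.04 in wild-type GFP-negative cells (SD, n = 3), a rise of 1.91. The other risers were the protease genes mmp2 (0.91) and mmp11b (0.81), and the fall was that of mmp9 (0.58). The membrane-anchored protease gene mmp14a rose by 2.21 in muscle cells and fell by 1.67 in mutant CNS cells and 2.17 in wild-type CNS cells, and in CNS cells it was 0.94 higher in mutants. In the same comparison of CNS cells mmp2 rose by 2.05 and timp2a by 1.99, and mmp14b rose as well. Neither of the other plastin genes, pls1 and pls3, had a probe set that passed the filter.

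The genes with the pattern most like each member were found by Pearson's r of log2(intensity + 16) over the 18 arrays, which share their scaling and sorted groups. For lcp1 the nearest were ncf1 (r = 0.973), mala.2 (0.929), samsn1a (0.921), spi1b by its dimmer probe set (0.912) and tbx15 (0.906). For spi1b they were slc12a3 (0.959), thbs3a (0.947), dnajb6b (0.946), the actin-capping gene capgb (0.943) and tbx15 (0.942). The list for mmp13a was cmlc1 (0.961), aldh8a1 (0.945), slc14a2 (0.943), ahcyl1 (0.939) and myl7 (0.938), of which cmlc1 and myl7 encode cardiac myosin light chains. For cebpa it was the claudin gene cldn3d (0.982), the endoderm factor gene foxa3 (0.979), the erythroid factor gene klf17 (0.977), the growth factor gene gdf3 (0.974) and znfl2a (0.971). The brighter coro1a probe set was nearest to myl6 (0.952), actn1 (0.952), cfl1l (0.943), tp63 (0.942) and tagln2 (0.941), where tp63 is the basal epidermal factor gene and cfl1l, like tp63, is on the epidermal marker list. Of the genes named here as nearest to a member, ncf1 alone is on a myeloid list.

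Among the members themselves, spi1b, lcp1 and mmp13a correlated at r between 0.900 and 0.933, taking either spi1b probe set. The gene cebpa was nearer to spi1b (0.883 with the brighter probe set) than to lcp1 (0.749), and its 3 mutant GFP-negative arrays were all above the limit, against 0 of 3 for lcp1. Given as descriptions, these values have no test.

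Markers of some other cell types moved with the members and those of others did not, and their part in the results was not tested. Of 14 erythroid markers, 13 fell in muscle cells, 13 in mutant CNS cells and 13 in wild-type CNS cells. The shares of all probe sets that fell were 21.8%, 8.57% and 17.4%. Endothelial markers fell in 4, 6 and 8 of 8 cases in the same order, epidermal ones in 17, 3 and 19 of 19, and those of endoderm and yolk in 5, 4 and 5 of 7. Unlike the myeloid counts above, these marker counts include any gene that passes the filter only through its highest compared group. Of a mast cell and lymphoid list only gata2a and ikzf1 passed the filter, and both fell in all 3 sorts. The gene ikzf1 is also on a myeloid list, and cpa5, rag1 and rag2 did not pass. In mutant against wild-type GFP-negative cells 16.8% of all probe sets fell and 17.0% rose. There 4 of the 14 erythroid markers fell and 0 rose (median -0.68), with summed intensities of 2807 to 5016 in mutants and 9416 to 11138 in wild type. Of 8 endothelial markers, 5 fell and 0 rose in that comparison (median -0.65), with sums of 792 to 936 in mutants, against 1131 to 1552 in wild type. Of these 8, 0 were at or below the limit on all arrays of either group, and of the erythroid markers this held for 1 in mutants and 0 in wild type. Of 7 endoderm and yolk markers 3 fell and 0 rose there (median -0.23), with overlapping sums of 2740 to 2858 in mutants and 2735 to 2878 in wild type. Most of each sum was apoeb (mean 1217 in mutants and 1199 in wild type) and ctsla (1194 and 1034), which were not called. The 3 that fell were foxa1 (-1.45), foxa3 (-0.60) and gata6 (-0.46). Of 10 neural markers 2 rose, a share near that of all probe sets, and 0 fell (median 0.29). Their sums were 3014 to 4474 in mutants, against 2369 to 2790 in wild type. The 10 sarcomere and myogenic markers had a median of -0.28 and overlapping sums of 2725 to 4156 in mutants and 3581 to 5090 in wild type. Epidermal markers fell in 10 of 19 cases there and rose in 0 (median -0.65), with sums of 7162 to 9876 in mutants, against 8683 to 11835 in wild type. The sums of the 15 myeloid genes were 585 to 707 in mutants, against 882 to 1291 in wild type. Of these 15, 5 were at or below the limit on all mutant arrays of that fraction and 0 on all wild-type ones. The median change of all probe sets there was 0.00.

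**Figure D5:**
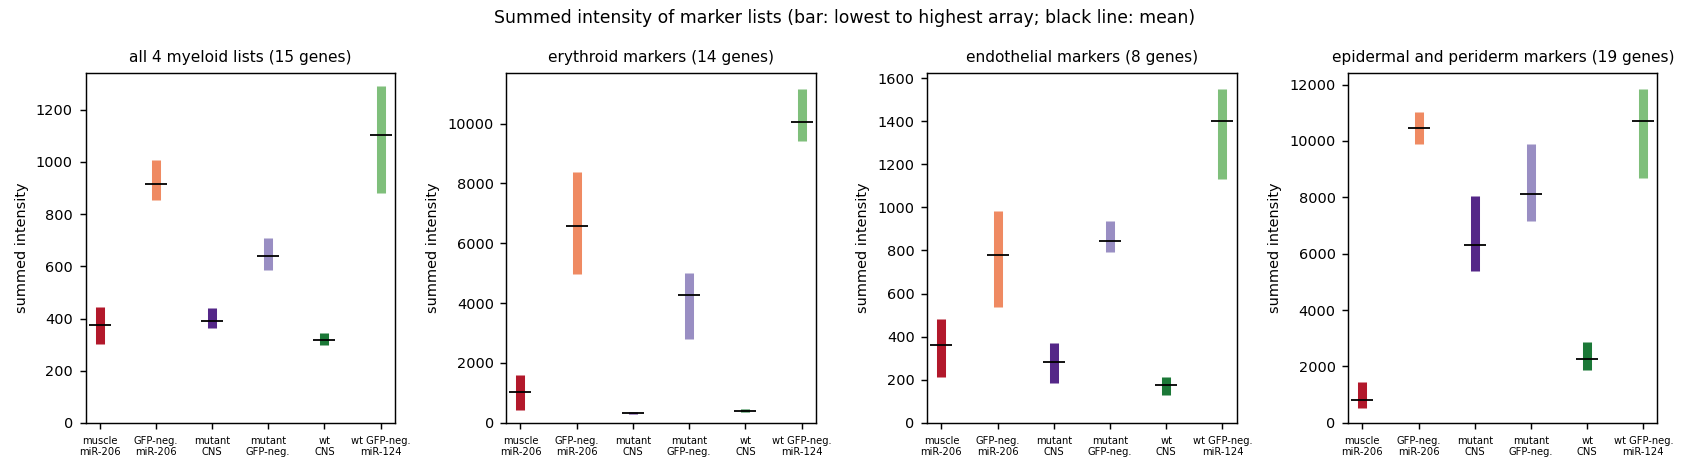
Summed intensity (vertical axis from 0) of 15 other myeloid genes, 14 erythroid, 8 endothelial and 19 epidermal markers in the 6 sorted groups, with a bar from the lowest to the highest array and a black line at the mean. Mutant GFP-negative cells lie below the wild-type GFP-negative cells of the miR-124 line for myeloid, erythroid and endothelial sums, and the epidermal sum of mutant CNS cells, 5383 to 8064, lies above that of wild-type CNS cells.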

How the data were processed

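Arrays of 18 samples in 6 sorted groups were used. The deposited intensities, on a linear scale, come from MAS5, per the submitters' processing notes, which as used here name no version or scaling target. Every array had the same 2% trimmed mean of 150.0, as computed from the values. The 115 control probe sets were left out, which left 15502. The platform annotation names 1 gene for 10795 of these, several for 135 and none for 4572. RefSeq held the gene ID of 10718 of them, and 1 symbol was updated.

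All tests used log2(intensity + 16). Only probe sets that exceeded their array's 40th percentile on 3 or more of 18 arrays were tested, 10704 in all. In R 4.3.3, limma 3.58.1 fitted 1 mean per group to all arrays jointly (12 residual degrees of freedom, variances with an intensity trend). Two-sided p-values were adjusted by Benjamini-Hochberg over all 10704 within each of 9 comparisons, at 0.05, after the code had been tested on simulated data. The p-values rest on the labels' statement that arrays are biological replicates. An exact permutation test of 3 against 3 cannot go below 0.1 and was not used. Tables and plots were made with Python 3.11.15, pandas 2.3.3, numpy 2.4.6 and matplotlib 3.10.9.

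The members and gene lists were chosen with earlier results of these data known. Named besides the members are up to 4 called genes with the largest change per myeloid list and sort comparison, called genes of the members' families, and the 5 genes most alike in pattern. Deviations of same-numbered arrays from their group means correlated at 0.358, 0.363 and 0.202 between the miR-206 fractions. Between the mutant fractions the correlations were 0.104, 0.272 and 0.290. For the wild-type miR-124 fractions they were 0.191, 0.003 and -0.114. Across lines, where numbers cannot pair fractions, the miR-206 rest and the wild-type miR-124 rest had 0.159, 0.018 and 0.290. Whether the numbers pair the fractions was therefore not settled. The alternatives were another added constant (1 or 64), other filters, a floor at the 40th percentile, median centring, quantile normalization, array weights, 1 probe set per gene, the compared groups only, the replicate block, and each array left out. Counts over probe sets that pass the filter without the arrays of their highest compared group were added after seeing the data. The values of 1 gene of the myeloid lists are counted but not reported here.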

Additional observations from a re-analysis of the deposited data

Results flagged for a closer look

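Effects of the sort differed between genotypes for 5 of the 7 probe sets, by limma's test of the difference itself. All 5 were positive, beside 2.01% of all probe sets. On the log2 scale, mutant minus wild type, the difference was 3.77 for mmp13a, 2.41 for spi1b by its brighter probe set, 1.86 for lcp1, 1.51 for cebpa and 1.32 for coro1a by its brighter probe set. Of these, lcp1 passed the filter only through groups where it is high, and 4 of the 5 probe sets that pass without their highest group were called. For spi1b, cebpa and lcp1 every CNS array was dim, so their values turn on the GFP-negative cells. So does that of mmp13a, for which all CNS arrays but 1 of wild type were dim. The lcp1 and coro1a calls were lost with dim values set to the limit. The brighter coro1a probe set correlated with the claudin gene cldni at r = 0.917, and which transcript it detects was not tested. With 1 added in place of 16, cebpa did not pass. Fitted sort effects were -0.72 in mutants and -4.48 in wild type for mmp13a, -0.59 and -3.00 for spi1b, -0.01 and -1.87 for lcp1, -3.46 and -4.98 for cebpa, and 0.01 and -1.31 for coro1a.

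Between the wild-type lines, the effect of sorting muscle cells differed from that of sorting CNS cells for 2 probe sets. Both differences were positive, beside 13.6% of all probe sets. The difference was 1.32 for the brighter spi1b probe set, from -1.68 for muscle and -3.00 for CNS cells. For cebpa it was 1.06, from -3.92 for muscle and -4.98 for CNS cells. Each value includes the difference between the GFP-negative groups, where cebpa averaged 521 in the miR-206 line and 840 in the miR-124 line. The brighter spi1b probe set averaged 81.4 and 182 there. Neither was called between muscle and CNS cells themselves. The spi1b difference was lost with some single arrays left out (0.84 without GFP-negative replicate 1 of the miR-206 line). The brighter spi1b probe set also does not pass the filter without both wild-type GFP-negative groups, which are compared here. With dim values set to the limit, neither difference passed. Every wild-type CNS array was dim for both probe sets, so only a bound on their CNS falls can be given.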

How the results depend on the processing

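No member difference that was called, in the reported fit or under the alternative, changed its sign. Signs changed 36 times among 15 differences that were called in neither, 20 of them with 1 array left out, with values between -0.17 and 0.20. With 1 array left out, 1090 changes kept their side of the threshold, 8 gained a call and 36 lost one; under the other settings the numbers were 628, 17 and 21. Of the 7 probe sets, with 1 array left out 6 to 7 were called in muscle cells, 7 to 7 in wild-type CNS cells, 1 to 1 in mutant CNS cells, 1 to 1 in mutant against wild-type CNS cells and 6 to 6 in the GFP-negative cells. For the genotype difference of sort effects it was 4 to 6, for muscle against CNS cells 0 to 1, for the wild-type GFP-negative groups 0 to 3 and for the difference between wild-type sorts 1 to 3. Over all probe sets the calls in the same order were 3172 to 3932, 2668 to 3689, 1207 to 1784, 2717 to 3958 and 2656 to 3999. They continued with 139 to 320, 3938 to 4899, 363 to 644 and 3164 to 3737. Counts over the 7 probe sets include lcp1 and the dimmer coro1a probe set, whose differences the filter favoured. With 1 added in place of 16, 2 were called in mutant CNS cells (1 in the reported fit), 2 in mutant against wild-type CNS cells (1), 3 for the genotype difference (5), 1 in muscle against CNS cells (0), 0 between the wild-type GFP-negative groups (2) and 1 for the difference between wild-type sorts (2). Array weights gave 2, 2, 6, 1, 0 and 1 in the same order. With the compared groups only, mutant CNS cells had 3, mutant against wild-type CNS cells 2, the wild-type GFP-negative groups 0 and the difference between wild-type sorts 1. Between the wild-type GFP-negative groups no filter gave 0, the floor 1 and median centring 1, while the floor gave 0 for the difference between wild-type sorts. Median centring and quantile normalization each gave 1 in muscle against CNS cells. With the replicate block 2 were called in mutant CNS cells, mmp13a with cebpa, and beside the dimmer spi1b probe set's gain in the genotype difference it changed no other member call. Of the other myeloid genes, those called in mutant CNS cells were 7 with array weights and with the compared groups only (4 in the reported fit). In mutant against wild-type GFP-negative cells they were 4 with the stricter filter and with the compared groups only (8), in mutant against wild-type CNS cells 5 with the compared groups only (3), and in the genotype difference 1 with the floor and 1 without mutant GFP-negative replicate 1 (3). In muscle against CNS cells they were 2 with the stricter filter and with the floor (4), and the stricter filter gave 0 between the wild-type GFP-negative groups (1) and 1 for the difference between wild-type sorts (2). Over all probe sets, array weights gave 2628 calls in mutant CNS cells (1593) and 379 between the wild-type GFP-negative groups (623), where the compared groups only gave 190; the genotype difference had 154 with 1 added and 367 with the replicate block (244). Median centring moved the median change of all probe sets from -0.05 to 0.14 in muscle and from 0.03 to 0.18 in wild-type CNS cells. The share of calls that were higher moved with it from 36.5% to 60.0% (47.7% with quantile normalization) and from 45.1% to 63.3%, and from 54.3% to 43.9% in mutant against wild-type CNS cells, from 41.0% to 53.3% in muscle against CNS cells and from 37.4% to 53.0% between the wild-type GFP-negative groups. The added constant sets the size of dim changes: the lcp1 change in wild-type CNS cells was -4.42 with 1 and -0.79 with 64, against -1.87. Why these counts move was not tested. Counting only probe sets that pass the filter without their highest compared group, chosen after seeing the data, moved no count of members called by over 1.5 times. Where a group was dim on every array, as for cebpa and the brighter spi1b probe set in both CNS groups, only a bound on its fold can be given.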
